A study of Mus musculus with 20 samples.

Results

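The 10 genes described here make and move bile acids: Cyp7a1, Cyp8b1, Slc10a1, Abcb11, Slc10a2, Fabp6, Slc51a, Slc51b, Fgf15, and Nr1h4. They were taken by name from a table of 55401 genes, and each name matched a single row. mRNA was sequenced from organs of female C57BL/6J mice aged 8 weeks, either WT or Nsun6-KO, with 2 libraries per organ and genotype. The KO mice lack exons 3 and 4 of Nsun6, which encodes an RNA methyltransferase that places 5-methylcytosine on RNA, and the deletion was made with CRISPR/Cas9 and a pair of guides, so it is present in all cells. No other allele and no treatment is named for either genotype. Of the 20 libraries, the 12 of the liver, the kidney, and the small intestine were compared, and those of the spleen and the heart served for levels only. Their totals ranged from 24772312 to 44508197 counts, with a median of 27815705.

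Bile acids are made from cholesterol in hepatocytes, released into bile by an export pump, and taken up again by enterocytes of the distal small intestine, from which they return to the liver in portal blood. CYP7A1 catalyzes the first and rate-limiting step of the classical pathway, and CYP8B1 makes the branch that leads to cholic acid. SLC10A1 (NTCP) takes bile acids up from blood into hepatocytes, and ABCB11 (BSEP) exports them into bile. In the ileum, SLC10A2 (ASBT) imports them from the lumen, FABP6 binds them inside the cell, and the heterodimer of SLC51A and SLC51B (OSTα and OSTβ) lets them out at the basolateral side. SLC10A2 also reclaims bile acids in the proximal tubule of the kidney. The nuclear receptor FXR, encoded by Nr1h4, senses bile acids, and its ileal target FGF15 is a hormone that lowers Cyp7a1 in the liver.

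Because FXR binds DNA as a dimer at inverted repeats of the hexamer AGGTCA spaced by 1 base, promoter windows of RefSeq (build GRCm38.p6, 250 bases before to 50 after the start of a gene) were searched on both strands. A window was found for 8 of the 10 genes (9 windows). The letters GGTNANTNACC, which are bases 2 to 6 of the hexamer with its 5th base free, a free spacer, and the reverse complement, were chosen after these windows had been seen. They occurred in 86 of 32851 windows (0.262%), among them those of Fabp6, with 2 matches, and Slc51b, with 1. The matches are shown with their flanks because both genes belong to the ileal group described next, with the core in capitals.
Fabp6, position -221 from the start, chr11:43601764-43601792, minus strand: gagcagagaGGTGAATGACCacactctgt
Fabp6, position -141 from the start, chr11:43601684-43601712, minus strand: tttccttaaGGTGAATAACCttggggctc
Slc51b, position -186 from the start, chr9:65422940-65422968, minus strand: cattcgtggGGTCATTCACCctggactgg
Of the Slc51b stretch, 16 bases lie inside the gene as the count table delimits it. The single hexamer AGGTCA, which the letters above overlap in part, occurred in 5340 windows (16.3%), and 5 of the 8 genes with a window held it, namely Abcb11, Slc51b, Nr1h4, Slc10a1, and Slc51a. A match of letters is a description of the window and does not show a bound site.

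Before the results, the libraries were compared with markers of the tissues they are labelled with. Markers of hepatocytes summed to 157600 to 239200 TPM (a level scaled to the exon length of each gene and to the library) in the liver and to at most 1810 in the kidney. Markers of the proximal tubule summed to 90280 to 140800 TPM in the kidney and to at most 4.94 in the liver. In the small intestine, the 2 replicate numbers of the labels stood apart, although the labels name no segment of the gut. The 7 markers of the proximal small intestine summed to 98.7 TPM in WT replicate 1 and 745 in KO replicate 1, but to 23280 in WT replicate 2 and 31250 in KO replicate 2. The 5 markers of the distal small intestine went the other way, with sums of 648 and 1055 TPM in the WT and KO libraries of replicate 1 and of 83.7 and 119 in those of replicate 2. Every one of the 7 proximal markers was higher, and every one of the 5 distal markers lower, in both libraries of replicate 2 than in both of replicate 1. Over all genes tested in the small intestine, 54.67% had replicate numbers that did not overlap, 27.86% with replicate 2 lower. The marker lists were chosen with earlier results of these data known. Pdx1, a transcription factor of the duodenum, had 0 counts in both libraries of replicate 1, and Osr2, a distal marker, had 0 counts in both of replicate 2. General markers of enterocytes were abundant in all 4 libraries, at 22610 to 39280 TPM in sum. Values of the small intestine are therefore given for each replicate number side by side. Nsun6 itself had levels of 2.86 and 1.45 TPM in the WT liver and 1.24 and 1.37 TPM in the KO liver, and of 4.08 and 2.57 against 2.26 and 1.90 TPM in the kidney. Levels in the small intestine were 5.48 and 2.70 TPM in the WT and 5.59 and 2.44 TPM in the KO, with overlapping genotypes. The count covers the whole gene, of which 2 exons are deleted, so it does not check the genotype. In bulk tissue, fewer cells of a type and less RNA per cell cannot be told apart.

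**Figure D1:**
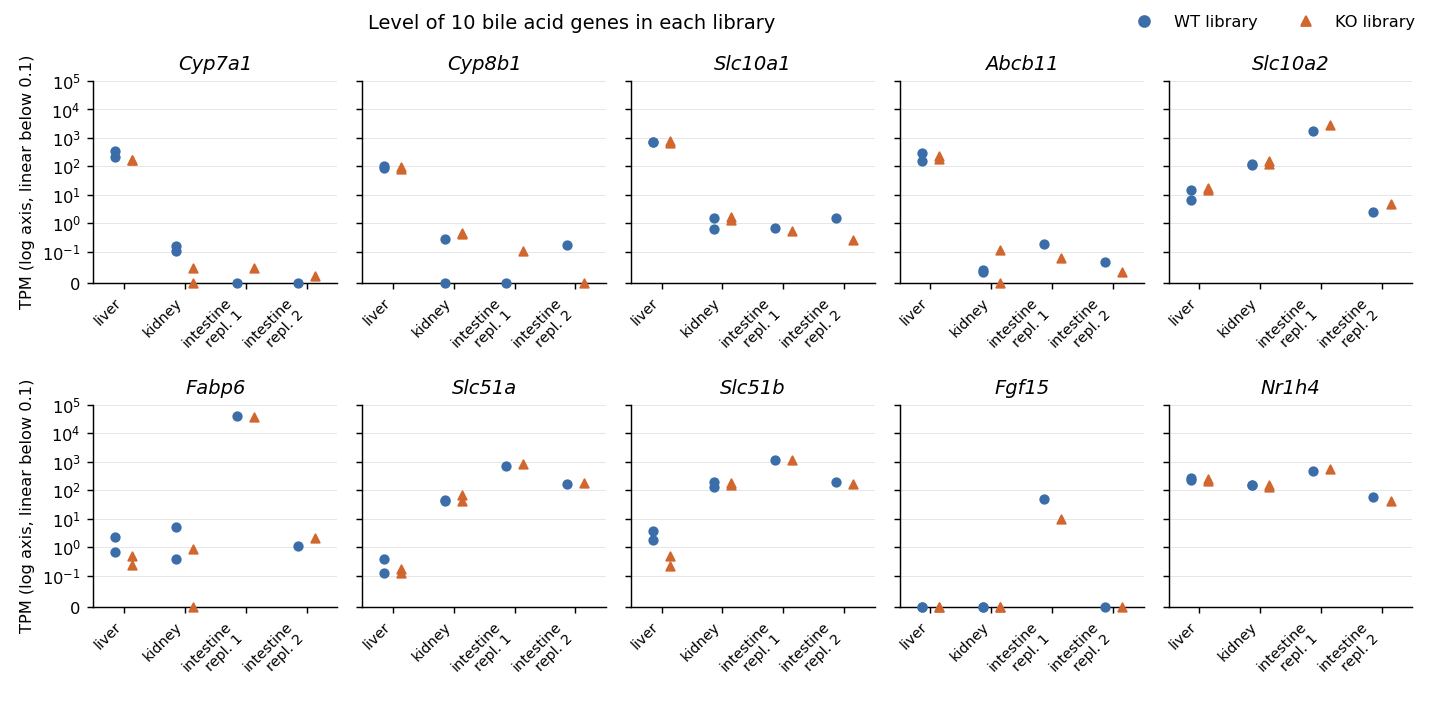
Level of each of the 10 genes (TPM, log axis that is linear below 0.1) in every library of the liver, the kidney, and replicates 1 and 2 of the small intestine. Circles are WT and triangles KO libraries. Cyp7a1, Cyp8b1, Slc10a1, and Abcb11 sit at 80.2 TPM or more in the liver only, and Fabp6 reaches 37790 to 39680 TPM in replicate 1 of the small intestine and 1.08 to 2.01 TPM in replicate 2.

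The synthesis enzymes and the hepatocyte transporters had their highest levels in the liver and few counts in the kidney and the small intestine. Cyp7a1 (chromosome 4, 6265612 to 6275633, GRCm38) had 335 and 217 TPM in the WT and 172 and 168 TPM in the KO libraries of the liver. Its kidney libraries held 0 to 6 counts and its intestinal libraries 0 to 2. Cyp8b1 (chromosome 9, 121914356 to 121916305) was steadier in the liver, at 92.3 ± 9.88 TPM (SD, n = 4). Slc10a1 (chromosome 12, 80953183 to 80968705) had the highest level of the 4 hepatocyte genes, 727 ± 58.6 TPM (SD, n = 4), and no library of another organ exceeded 21.9 TPM. Abcb11 (chromosome 2, 69238282 to 69342616) had 292 and 157 TPM in the WT and 178 and 238 TPM in the KO liver, with overlapping genotypes. In the kidney and the small intestine its level was at most 0.189 TPM. Abcb11 shares 155 exon bases with Gm13613 and Gm13614.

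In the fit of the 12 libraries with edgeR's quasi-likelihood test, a differentially expressed gene (DEG) had to differ more than 2-fold with an adjusted p (Benjamini-Hochberg) under 0.1. Between liver and kidney, 36.7% of the 20661 genes tested were DEGs, 14.7% higher and 22% lower in the liver. Of the 10 bile acid genes, 5 were higher in the liver (Cyp7a1, Cyp8b1, Slc10a1, Abcb11, and Nr1h4) and 2 were lower (Slc51a and Slc51b). The log2 fold changes of Slc10a1 and Abcb11 were 9.99 (SE 0.62, adjusted p = 2.69e-07) and 12.85 (SE 0.69, adjusted p = 1.37e-07). The median log2 fold change was 0.83 over the 10 genes and -0.08 over all genes tested. The 10 include Fgf15, at 0 counts in both organs, and Fabp6, at 2 to 14 counts in the liver and 0 to 22 in the kidney. The median is therefore not read as a shift of the group.

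The kidney carried the reabsorption group, with Slc10a2, Slc51a, Slc51b, and Nr1h4 but little else. Slc10a2 (chromosome 8, 5083219 to 5105351) had 108 and 125 TPM in the WT and 121 and 151 TPM in the KO kidney. Slc51b had 130 and 199 TPM in the WT and 158 and 176 TPM in the KO kidney, and its partner Slc51a 44.7, 41.4, 66.3, and 41.2 TPM in the same order. The level of Slc51b was thus 2.38 to 4.81 times that of Slc51a in the kidney, whereas in the small intestine the ratio was 0.93 to 1.69. Fabp6, Fgf15, and the hepatocyte genes stayed low, with Fgf15 at 0 counts in all 4 kidney libraries, which allows a level of up to 0.106 TPM by counting error alone. The liver had 0.121 to 0.367 TPM of Slc51a and 0.21 to 3.54 TPM of Slc51b, and the log2 fold changes of liver over kidney were -7.19 (SE 0.62, adjusted p = 2.69e-06) and -6.28 (SE 0.81, adjusted p = 7.31e-05). Slc51a (chromosome 16, 32474504 to 32487879) shares 567 exon bases with Pcyt1a, and Slc51b (chromosome 9, 65412714 to 65422955) shares 91 with Rasl12, so reads from those stretches could belong to either gene.

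Slc10a2 was also detected in the liver, at 14.5 and 6.55 TPM in WT and 15.3 and 17.5 TPM in KO libraries. Cholangiocytes, which line the bile ducts, are known to express this importer, and the 6 markers of that cell type summed to 52.5 to 74.4 TPM in the liver, of which Spp1 gave 50.03 to 72.27 and the other 5 together 2.11 to 5.17 TPM. The part of these cells in the level was not tested. The level in the liver lay below that of the kidney in every library, but the log2 fold change of -2.50 (SE 1.42) was not called (adjusted p = 0.191) in the fit that also holds the intestinal libraries. Without the WT or the KO library of intestinal replicate 2 it was called, at -2.47 and -2.54, and so it was without the filter on low counts. A block on the replicate number also called it, at -2.02.

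Nr1h4 was the only member present at 42.4 TPM or more in every library of the 3 organs. It had 260 and 234 TPM in the WT and 239 and 216 TPM in the KO liver, and 132 to 155 TPM in the kidney. The difference between liver and kidney was called (log2 fold change 1.49, SE 0.62, adjusted p = 0.0774), with no overlap of libraries, but not at an adjusted p under 0.05, and leaving out single libraries ended the call in 7 of 12 cases.

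In the small intestine, the genes of the ileal group were all lower in replicate 2. Slc10a2 had 1722 TPM in WT replicate 1 and 2811 TPM in KO replicate 1, but 2.42 and 4.64 TPM in the WT and KO libraries of replicate 2. Fabp6 (chromosome 11, 43596049 to 43601540) fell from 39680 to 1.08 TPM in WT and from 37790 to 2.01 TPM in KO libraries. The gene alone made up 3.97% and 3.78% of all TPM in the WT and KO libraries of replicate 1, and in replicate 2 it had 6 and 10 counts. Fgf15 (chromosome 7, 144896531 to 144900953) had 1913 counts in WT replicate 1, 279 in KO replicate 1, and 0 in both libraries of replicate 2. Taking 3 counts as the limit of detection per library, its level was at least 598-fold higher in replicate 1 of the WT and at least 101-fold higher in replicate 1 of the KO. Fgf15 shares 787 exon bases with Gm26793 and Gm39119, so some of its reads cannot be assigned with certainty.

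The exporters and the receptor differed less. Slc51a had 702 and 843 TPM in the WT and KO libraries of replicate 1 and 164 and 179 TPM in those of replicate 2. For Slc51b the levels were 1184 and 1137 TPM against 199 and 166 TPM. Nr1h4 had 461 and 539 TPM in replicate 1 and 57.8 and 42.4 TPM in replicate 2. All 3 remained readily detected in replicate 2, in contrast to Fabp6 and Fgf15, and the levels of the replicate numbers did not overlap for any of the 6 ileal genes. Over all genes tested, 54.7% had replicate numbers that did not overlap, 27.9% with replicate 2 lower.

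A fit of replicate 2 against replicate 1 with genotype as a term, which leaves 1 residual degree of freedom, called 7.64% of the 17680 genes tested, 4.52% higher and 3.11% lower in replicate 2. Of the 7 bile acid genes tested, 6 were called, all lower in replicate 2. The log2 fold changes were -14.26 for Fabp6 (SE 0.59, adjusted p = 0.0100), -9.003 for Slc10a2 (SE 0.38, adjusted p = 0.0100), -2.98 for Nr1h4 (SE 0.27, adjusted p = 0.0239), -2.32 for Slc51b (SE 0.20, adjusted p = 0.0209), and -1.82 for Slc51a (SE 0.23, adjusted p = 0.0415). Fgf15 was called as well, and only its bound is given because replicate 2 was at 0. Leaving out either library of replicate 2, with no genotype term, ended the calls of Slc51a and Fgf15. Slc10a1 was not called (log2 fold change 0.55) at 6 to 40 counts per library. The proximal markers were called higher (7 of 7) and the distal markers lower (5 of 5) in the same fit, for example Lct, the brush-border lactase (log2 fold change 13.86, SE 0.45), and Nts, the hormone neurotensin (-5.77, SE 0.26). The median log2 fold change was -2.98 over the 7 bile acid genes and -0.03 over all genes. Of the 7, Fabp6, at 6 and 10 counts in replicate 2, and Fgf15, at 0, passed the filter through replicate 1 alone. The median is therefore not read as a shift of the group. The median gene was 0.38 lower in replicate 2 on the TPM scale and 0.03 lower on the scale of the fit (both log2). The ratios of TPM are therefore larger than the fitted changes. The genes were chosen with this pattern known, and the marker lists with earlier results of these data known. Pdx1 and Osr2, at 0 counts in one replicate number, passed the filter through the other alone. The calls of both genes and markers are therefore a description. The replicate number cannot be told apart from any other difference between these mice or dissections.

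**Figure D2:**
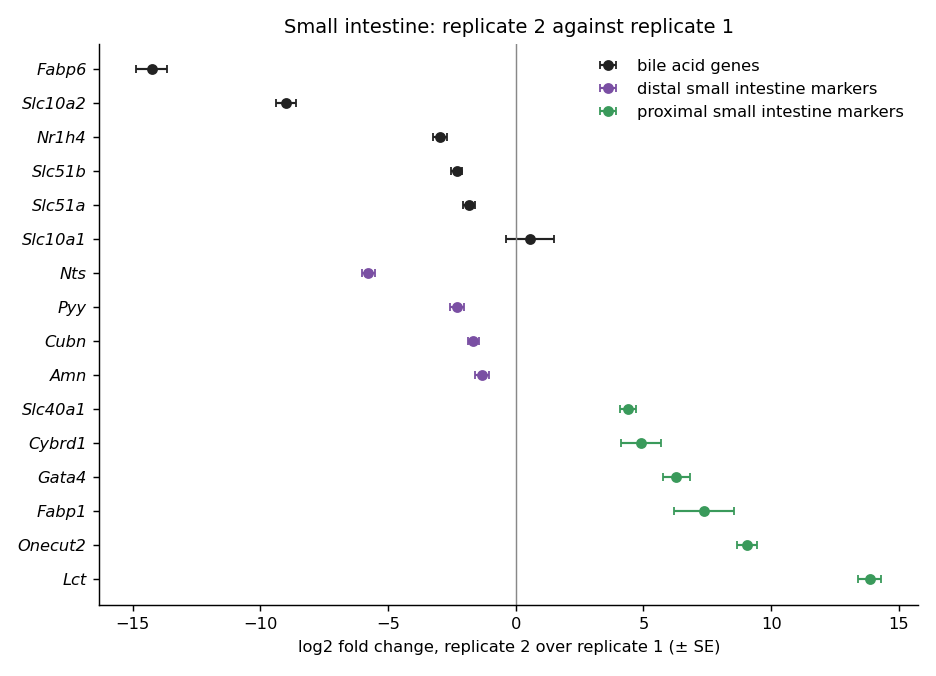
Log2 fold change of replicate 2 over replicate 1 in the small intestine (points) with its SE (bars) for 6 bile acid genes (black), 4 distal markers (purple), and 6 proximal markers (green). Fgf15, Osr2, and Pdx1 are left out because a replicate number was at 0 counts. Slc51a, Slc51b, Nr1h4, Slc10a2, and Fabp6 lie left of 0, from -1.82 to -14.26, on the side of the distal markers.

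The choice of intestinal library sets the order of the organs. For Slc10a2, the mean level of replicate 1 was 17.96 times that of the kidney, whereas the kidney had 35.8 times the mean level of replicate 2. For Nr1h4, replicate 1 had 3.39 times the level of the kidney, and the kidney 2.94 times that of replicate 2. Slc51a stood above the kidney in both, at 15.96 times in replicate 1 and 3.54 times in replicate 2, and Slc51b stood at 7.003 and 1.101 times. With replicate 1 the order of Slc10a2 was small intestine, kidney, liver, and with replicate 2 it was kidney, liver, small intestine.

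With all 4 intestinal libraries in the fit, liver against small intestine called 48.4% of the genes (20.8% higher and 27.6% lower in the liver), and kidney against small intestine called 47.6% (23.9% higher and 23.8% lower in the kidney). Of the 10 bile acid genes, 4 were higher and 5 lower in the liver than in the small intestine, and 0 were higher and 5 lower in the kidney, by edgeR. DESeq2 called 9 and 7, beside 44.9% and 43.7% of the genes to which it gave an adjusted p. The 7 include Cyp7a1 and Cyp8b1, higher in the kidney (1.98 and 1.81) on at most 9 counts per library. Both were below the filter on low counts in either organ alone, so no difference is read from them. Slc10a2 was among the lower genes in both comparisons, with log2 fold changes of -5.57 (SE 1.63, adjusted p = 0.0129) and -3.07 (SE 1.45, adjusted p = 0.0950), the second of which was lost when any of 10 of the 12 libraries was left out. Against replicate 1 alone these became -6.61 and -4.04, and against replicate 2 alone they turned to 2.42 (adjusted p = 0.000304) and 4.92 (adjusted p = 4.72e-06). Nr1h4 in the kidney went from -1.69 against replicate 1 (adjusted p = 0.000201) to 1.23 against replicate 2 (adjusted p = 0.00381). Nr1h4 in the liver was not called with all 4 intestinal libraries (0.59, SE 0.61, adjusted p = 0.442). Across the other settings its value ranged from -0.27 to 2.72. Fabp6 was no longer called against replicate 2 in either organ, at -0.88 for the liver and -1.13 for the kidney, and Slc51b was no longer called in the kidney, at -0.40. Slc51a stayed lower than in the small intestine with either choice, at -11.19 and -9.35 in the liver and -3.94 and -2.16 in the kidney. These contrasts share libraries and are not independent of each other.

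Outside the 3 organs the genes were close to absent, with exceptions in the spleen. In the heart, Slc10a2, Fabp6, and Fgf15 had 0 counts in all 4 libraries, and no other member exceeded 1.05 TPM. In the spleen, WT replicate 2 had 21.9 TPM of Slc10a1, 7.85 of Abcb11, 4.62 of Cyp8b1, and 3.36 of Cyp7a1. The 10 markers of hepatocytes summed to 5605 TPM in that library, with Alb the most abundant at 4498 TPM, and to 14.04, 185, and 271 TPM in the other spleen libraries. The levels of these 4 genes in that library were 1.51% to 5.01% of their mean in the liver. The part of liver RNA in them was not tested. Fabp6 had 16.6 and 37.5 TPM in replicate 1 of the WT and KO spleen and at most 0.362 TPM in replicate 2.

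The question the study put to each organ was whether loss of Nsun6 changes gene expression. In the liver, 0.0509% of the 15729 genes tested were DEGs between KO and WT, all higher in the KO. Of the 10 bile acid genes, 7 were tested and 0 were called by edgeR, 2 had an unadjusted p under 0.05 (beside 739, or 4.70%, of all genes tested), and DESeq2 called 0 of them (0.356% of its genes). Cyp7a1 was lower in both KO libraries than in both WT libraries (log2 fold change -0.48, SE 0.21, adjusted p = 0.9995). Slc10a2 was higher in both KO libraries (0.89, SE 0.26, adjusted p = 0.947). Without the filter on low counts its adjusted p was 0.0254 at 0.88, under the fold threshold, and without WT replicate 1 it was called at 1.29 (adjusted p = 0.0121). Slc51b was lower in both KO libraries (-2.66, SE 0.81, adjusted p = 0.947), on counts of only 32 and 16 in WT and 2 and 6 in KO. Over all genes tested in the liver, 33.3% had genotypes that did not overlap, against these 3 of the 7. The 10 hepatocyte markers summed to 157600 and 239200 TPM in the WT and to 217200 and 210500 TPM in the KO liver, led by Alb. Of these 8 had a log2 fold change above 0, with a median of 0.25 beside 0.0048 for all genes, and 0 were called by edgeR or DESeq2 or had an unadjusted p under 0.05. The 6 cholangiocyte markers summed to 71.8 and 74.4 TPM in the WT and to 52.5 and 71.3 TPM in the KO. The 8 enterocyte markers summed to 341 and 469 TPM in the WT and to 351 and 438 TPM in the KO, led by Fabp2. Of the 3 tested 0 were called by either tool and 2 had an unadjusted p under 0.05, Apoa4 (0.95, SE 0.30) and Vil1 (-3.53, SE 1.12), whose WT libraries had 36 and 10 counts and whose KO libraries had 0 and 4. The part of these cell types in the values was not tested.

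The other hepatocyte genes and Nr1h4 differed by less than the SE of their log2 fold change. The log2 fold changes were 0.06 for Cyp8b1 (SE 0.24), 0.14 for Slc10a1 (SE 0.25), 0.12 for Abcb11 (SE 0.26), and 0.06 for Nr1h4 (SE 0.21), each with an adjusted p of 0.9995. The TPM means of these genes were slightly lower in the KO, such as 89.2 against 95.5 TPM for Cyp8b1, because the median gene was 0.19 lower in the KO on the TPM scale and 0.01 higher on the scale of the fit (both log2). Fabp6, Slc51a, and Fgf15 were below the filter on low counts in the liver.

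In the kidney 0% of 17550 genes were called by edgeR. DESeq2 also called 0, and 112 genes had an unadjusted p under 0.05. The 5 bile acid genes tested were Slc10a1, Slc10a2, Slc51a, Slc51b, and Nr1h4, and none had an unadjusted p under 0.05. The log2 fold changes were 0.59 for Slc10a1 (SE 0.63), 0.12 for Slc10a2 (SE 0.42), 0.26 for Slc51a (SE 0.39), -0.13 for Slc51b (SE 0.49), and -0.16 for Nr1h4 (SE 0.37). Of the 5 tested, only Slc10a1, at 15 to 37 counts per library, had genotypes that did not overlap on the scale of the fit. Over all genes tested the share was 21.5%, and in TPM the genotypes of Slc10a1 overlapped. Leaving out WT replicate 1 raised the number of DEGs in the kidney to 2938, and leaving out WT replicate 2 to 444, and none of the 5 genes was called in either case. Without WT replicate 1, Slc51b (-0.65, adjusted p = 0.0402) and Nr1h4 (-0.50, adjusted p = 0.069) passed the adjusted p but changed less than 2-fold. In that organ the proximal tubule markers summed to 90280 TPM in WT replicate 1, 127200 in WT replicate 2, 115800 in KO replicate 1, and 140800 in KO replicate 2.

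In the small intestine 0% of 17680 genes were called by edgeR, 51 by DESeq2 (0.343% of its genes), and 422 had an unadjusted p under 0.05. Of the 10 bile acid genes, 7 were tested and none had an unadjusted p under 0.05. Since replicate numbers differed so widely, the standard errors reached 3.07 for Slc10a2 and 4.01 for Fabp6, around log2 fold changes of 0.59 and -0.18. Both values lie well within their errors. Within a replicate number, each with a single library per genotype and so no test, the log2 ratio of KO over WT was 0.59 in replicate 1 and 0.82 in replicate 2 for Slc10a2. The corresponding ratios were 0.15 and 0.01 for Slc51a, -0.17 and -0.37 for Slc51b, and 0.11 and -0.56 for Nr1h4. Slc10a1 had ratios of -0.53 and -2.70, on 19 and 11 counts in replicate 1 and 40 and 6 in replicate 2. In the fit its log2 fold change was -1.75 (SE 0.90, adjusted p = 0.9999). Of the 7 members tested in the small intestine, only Slc10a1 had genotypes that did not overlap, beside 25.2% of all genes tested. Fabp6 had a ratio of -0.18 in replicate 1, whereas its ratio of 0.78 in replicate 2 rests on 6 and 10 counts. Fgf15 stood out in replicate 1 with 50.7 TPM in the WT and 9.57 TPM in the KO library, a log2 ratio of -2.52 between a single pair of libraries. In the fit of the 4 libraries its estimate was also -2.52 (SE 3.17, adjusted p = 0.9999).

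**Figure D3:**
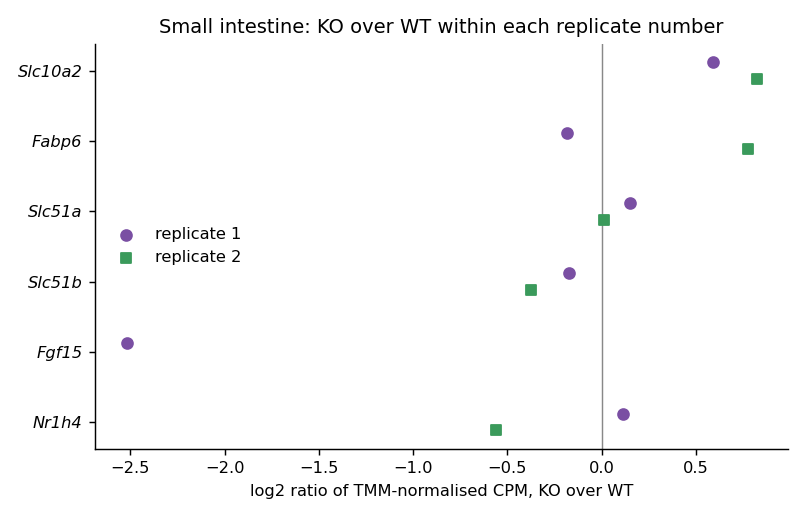
Log2 ratio of CPM after TMM normalization, KO over WT, within replicate 1 (circles) and replicate 2 (squares) of the small intestine, each from 1 library per genotype. The 6 genes of the ileal group are shown, and their values lie between -0.56 and 0.82 except Fgf15 in replicate 1 at -2.52. Slc10a1, at 6 to 40 counts per library, is not drawn. Fgf15 has no point in replicate 2, where both libraries had 0 counts.

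Of the marker lists given here for the small intestine, only smooth muscle had sums that did not overlap between genotypes. The 4 smooth muscle markers summed to 151 and 210 TPM in the WT and to 1082 and 720 TPM in the KO libraries, led by Acta2 and Des. All 4 had positive log2 fold changes, from 1.95 to 2.40, with 0 called by edgeR, 4 at an unadjusted p under 0.05, and 2 called by DESeq2 (Des and Myh11). The 8 enterocyte markers summed to 22610 and 37150 TPM in the WT and to 34210 and 39280 TPM in the KO, with 0 called by edgeR. The proximal markers in replicate 1 summed to 98.7 TPM in the WT and 745 TPM in the KO library, the pair in which Fgf15 differed, and the distal markers to 648 and 1055 TPM. Fabp1 alone gave 54.5 and 722 TPM of the proximal sums, and the other 6 markers summed to 44.2 TPM in the WT and 23.4 TPM in the KO. The 4 colon markers summed in that pair to 81.6 TPM in the WT, led by Car1 at 71.2, and to 22.6 TPM in the KO, and in replicate 2 to 7.18 and 32.2 TPM. The part of these markers in the value of Fgf15 was not tested. The 10 hepatocyte markers summed to 95.1 and 28.8 TPM in the WT and to 18.05 and 28.81 TPM in the KO libraries of replicates 1 and 2, with Alb at 65.3 and 8.65 TPM in the WT and 9.67 and 15.5 TPM in the KO. Of the 8 tested, 7 had a log2 fold change below 0, as Slc10a1 did, with a median of -1.49, and 0 were called by edgeR or DESeq2 or had an unadjusted p under 0.05. Their part in the value of Slc10a1 was not tested.

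**Figure D4:**
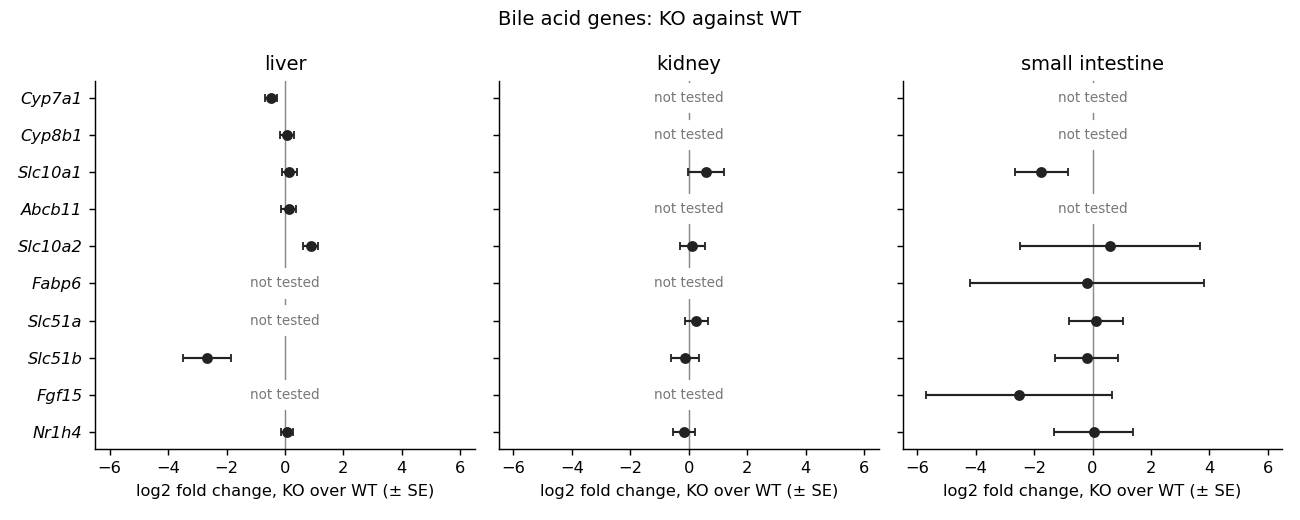
Log2 fold change of KO over WT (points) with its SE (bars) in the liver, the kidney, and the small intestine, 2 libraries per genotype in each. Genes below the filter on low counts are marked as not tested, and none of the values shown was called. The bars are widest in the small intestine, at 4.01 for Fabp6.

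The effect of the KO was also compared between organs with interaction terms. For liver against kidney, liver against small intestine, and kidney against small intestine, edgeR called 0% of 20661 genes each, while 247, 676, and 561 genes had an unadjusted p under 0.05, and DESeq2 called 0, 31, and 1 (0%, 0.126%, and 0.00299% of its genes). None of the 10 bile acid genes was called in these tests by either tool, and 0, 2, and 2 had an unadjusted p under 0.05. Slc10a1 had the unadjusted p of 0.0266 between liver and small intestine and 0.0118 between kidney and small intestine, on at most 40 counts per intestinal library. Cyp7a1 had unadjusted p of 0.0168 and 0.00402 in the same order, with 0 to 2 counts per intestinal and 0 to 6 per kidney library. The gene was below the filter on low counts in each of these organs alone, so no KO effect is read from its values.

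Wider lists of the pathway were read from the same fits. Of 13 further enzymes of synthesis and conjugation, 11 of 12 tested were higher and 0 lower in the liver than in the kidney (14.7% and 22% of all genes), and 12 of 12 were higher than in the small intestine (20.8% of all genes). Examples were Slc27a5, which activates bile acids with coenzyme A (log2 fold change 11.05 over the kidney, SE 0.52), Cyp2c70, which makes muricholic acids in mice (12.54, SE 0.61), and Akr1d1, a 5β-reductase (13.18 over the small intestine, SE 0.67). The kidney exceeded the small intestine in 5 of the 12 enzymes (23.9% of all genes), such as Akr1d1 (9.87, SE 0.62), Acox2 (4.25, SE 0.36), and Amacr (2.49, SE 0.28), the last of which act in side-chain oxidation. The median of the enzymes was 3.28 for liver over kidney and 4.83 for liver over small intestine, against -0.08 and -0.14 over all genes. Fits of single organs kept 12 enzymes for the liver, 10 for the kidney, and 9 for the small intestine. Some enzymes thus entered these comparisons through the liver, where they are high. Neither median is read as a shift of the list.

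Of 10 other transporters, 9 were higher and 1 was lower in the liver than in the kidney (14.7% and 22% of all genes), and 4 were higher and 1 was lower than in the small intestine (20.8% and 27.6% of all genes). The uptake carriers Slco1b2 and Slco1a4 had 673 to 798 and 54.0 to 108 TPM in the liver. Abcc4, an exporter of organic anions, was lower in the liver than in the kidney (-4.02, SE 0.30). Atp8b1, a phospholipid flippase, was lower in the liver than in the small intestine (-2.41, SE 0.21). Abcg5 and Abcg8, which together export sterols, had 308 to 342 and 75.3 to 99.5 TPM in the small intestine and at most 0.415 and 1.07 TPM in the kidney. Between the replicate numbers of the small intestine their log2 fold changes were 0.29 (SE 0.21) and 0.23 (SE 0.18), neither of them called. In the kidney against the small intestine, 2 of the 10 transporters were higher and 4 lower, beside 23.9% and 23.8% of all genes.

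Of 10 receptors and regulators, 9 were tested, of which 6 were higher and 1 was lower in the liver than in the kidney (14.7% and 22% of all genes). In the liver 5 were higher and 1 was lower than in the small intestine (20.8% and 27.6% of all genes), and in the kidney 1 was higher and 6 were lower (23.9% and 23.8% of all genes). Klb, the co-receptor for FGF15, had 11.9 to 18.5 TPM in the liver and at most 0.238 TPM in the other 2 organs (7.62 over the kidney, SE 0.46, and 7.35 over the small intestine, SE 0.45). Fgfr4, the receptor itself, had 16.95 to 27.1 TPM in the liver and ranged from 2.22 TPM in WT replicate 2 to 57.8 TPM in WT replicate 1 of the kidney. Vdr, the vitamin D receptor, was at most 0.125 TPM in the liver and at least 48.3 TPM in the kidney and small intestine.

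Between the replicate numbers of the small intestine, the regulators split. Of the 8 tested, edgeR called 2 higher and 1 lower in replicate 2 (4.52% and 3.11% of all genes). The other 5 were not called by edgeR. DESeq2 called 4 of the 8, with Fgfr4 in addition (12.7% of its genes). Nr0b2, which encodes the repressor SHP and is a target of FXR, had 0.573 and 0.926 TPM in the WT and KO libraries of replicate 1 and 40.4 and 62.9 TPM in those of replicate 2. It was called higher in replicate 2 (6.44, SE 0.38, adjusted p = 0.0129), the opposite direction to Nr1h4 and to the 5 other ileal genes. Nr1i3, the receptor CAR, was also higher in replicate 2 (4.77, SE 0.49, adjusted p = 0.0288), whereas Nr5a2, the receptor LRH-1, was lower (-1.88, SE 0.38, adjusted p = 0.0899). Of the 9 enzymes tested, beside 4.52% higher and 3.11% lower of all genes, 3 were higher (Hsd17b4, Scp2, and Cyp27a1) and Baat, which conjugates bile acids to taurine, was lower, with 17.7 and 33.6 TPM in replicate 1 and 0.892 and 0.694 TPM in replicate 2 (-4.58, SE 0.54, adjusted p = 0.0368). None of the 7 other transporters tested was called, although 2 had an unadjusted p under 0.05 and DESeq2 called 1, Abcc2 (12.7% of its genes). Abcc3 had the smallest p (0.89, SE 0.18, adjusted p = 0.0872) and stayed under the fold threshold.

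No gene of the wider lists was called between KO and WT in the 3 organs, by edgeR or by DESeq2. An unadjusted p under 0.05 was found for 2, Klb in the liver and Abcc3 in the kidney. Enzymes, transporters, and regulators tested numbered 12, 10, and 8 for the liver. For the kidney they numbered 10, 7, and 7, and for the small intestine 9, 7, and 8. The share of all genes at that p was 4.70% (liver), 0.638% (kidney), and 2.39% (small intestine). In the liver the genes with the smallest p of their lists were Klb (0.58, SE 0.20, adjusted p = 0.969), Slco1a4 (-0.38, SE 0.21), and Cyp7b1 (0.22, SE 0.18). Klb had 13.6 and 11.9 TPM in the WT and 15.2 and 18.5 TPM in the KO liver. In the kidney Abcc3, a basolateral exporter, had 16.1 and 15.2 TPM in the WT and 34.4 and 36.2 TPM in the KO (1.11, SE 0.34, adjusted p = 0.9999), and its genotypes did not overlap, as for 21.5% of all genes tested in the kidney. Baat (-0.65, SE 0.35) and Rxra, the dimer partner of FXR (0.49, SE 0.39), had the smallest p of their lists in that organ. In the small intestine Cyp7b1 had 0.711 and 0.839 TPM in the WT and 2.95 and 2.31 TPM in the KO (1.61, SE 0.60, adjusted p = 0.9999). Abcc3 and Fgfr4 had log2 fold changes of -0.59 (SE 0.49) and 1.03 (SE 1.19) there.

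Across the 20 libraries, the genes most like the members in log2 CPM were named from 23149 genes by Pearson's r, as a description. The hepatocyte members had neighbours that are high in the liver, such as Apcs for Cyp8b1 (r = 0.983), Cfhr3 for Slc10a1 (r = 0.989), and Serpina3m and Hpx for Abcb11 (r = 0.985 for both). The ileal members had others, with Ms4a20 (r = 0.964) and Defa22 (r = 0.962) nearest to Fabp6, and Slc25a48 (r = 0.947) and Erlin1 (r = 0.945) nearest to Slc10a2. Slc51b was closest to Fermt1 (r = 0.979) and Glod5 (r = 0.977), and Nr1h4 to A1cf (r = 0.975) and Wasl (r = 0.974). For Cyp7a1 they were the predicted genes Gm10319 (r = 0.991) and Gm13775 (r = 0.991), and for Fgf15 Gm39119, which shares its exon bases, and Gm47548. The libraries of an organ share their tissue, so such values chiefly order the genes by organ.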

How the data were processed

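Counts per gene were deposited as one table. According to the methods, the labels and the stored command, the authors trimmed reads with cutadapt, mapped them with HISAT2 2.1.0 to mm10 (the methods print a human build), and counted exons of Ensembl release 102 with featureCounts 2.0.1. The methods state strand-specific counting of proper pairs, which the stored command does not show, so overlapping genes are uncertain. The other deposited value is the exon length of each gene. The counts were not normalized, and mates may have been counted separately, so limits from counts cover counting error only.

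TPM was computed from counts and exon length. Genes were filtered with filterByExpr, normalized by TMM, and tested over the whole table with the robust quasi-likelihood method of edgeR 4.0.16 (R 4.3.3), separately in each organ (genotype only), for replicate 2 against replicate 1 (with genotype), and in a fit of 12 libraries for organs and interactions. P-values were adjusted with the Benjamini-Hochberg method over all genes tested. DESeq2 1.42.0 was an alternative, beside RLE size factors, no filter, an adjusted p under 0.05, 1 fit of 20 libraries, a replicate block, either intestinal replicate alone, and each library left out. The fits were also tested on simulated counts, and the outcome is not reported here. Standard errors were derived from the log2 fold change and the F statistic. The 10 genes and all lists were chosen with earlier results of these data known. From the wider lists, up to 3 DEGs with the smallest p in each direction could be named, or the gene with the smallest p where none was called. For likeness, the 2 genes with the highest r were named, and those of Slc51a are not reported here. Whether organs came from the same mice is not stated, and libraries were treated as independent biological replicates. Each group has 2 libraries, and genes of few counts are named with their counts. Lists of cholangiocytes, colon, and exocrine pancreas were also summed, and colon and pancreas markers reached at most 81.6 and 3.42 TPM in the small intestine.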

Additional observations from a re-analysis of the deposited data

Results flagged for a closer look

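Slc51a in the kidney had 66.3 TPM in KO replicate 1, apart from the other 3 kidney libraries (gap over range 0.859, critical value 0.829). Of 27 groups of 4 libraries checked, this was the only one with a library apart, and chance gives about 1 in 20. Counts above the limit of 3 were found in organs outside the comparisons. The spleen WT replicate 2 library held 137 counts of Cyp7a1, 88 of Cyp8b1, 469 of Slc10a1, 394 of Abcb11, 36 of Slc10a2, and 110 of Nr1h4. Spleen KO replicate 1 held 218 counts of Fabp6. Slc51b had 6 counts in spleen WT replicate 1, and Slc51a had 30 counts in heart KO replicate 2.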

How the results depend on the processing

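Of 63 counts of DEGs under other settings, 51 stayed within 1.5 times the reported count. In the liver the 8 DEGs between genotypes became 53 with DESeq2, 122 without the filter, and 0 in 1 fit of 20 libraries. In the small intestine DESeq2 called 51 between genotypes. Replicate 2 against replicate 1 gave 2231 with DESeq2 and 602 at an adjusted p under 0.05. For the interaction tests, the counts were 43 without the filter (liver against kidney), 31 with DESeq2 and 182 without the filter (liver against small intestine), and 1 with DESeq2 and 133 without the filter (kidney against small intestine). Leaving out each library in turn gave 2 to 205 DEGs between genotypes in the liver, 1 to 2938 in the kidney, and 402 to 2360 between replicate numbers (427 and 2213 in between; there with no genotype term, an alternative added after the data were seen, since no residual degree of freedom is left with it), with a lone library assumed to vary like the others. The interaction tests gave 0 to 341, 0 to 10, and 0 to 244 in the order above. The cause of these changes was not tested.

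Among single genes, Slc10a2 turned to 2.42 (liver) and 4.92 (kidney) against intestinal replicate 2 alone, Nr1h4 in the kidney turned to 1.23 against replicate 2, and Nr1h4 in the liver turned to -0.27 against replicate 1. Across the other settings, Nr1h4 in the liver against the small intestine ranged from -0.27 to 2.72. Without a library in turn, log2 fold changes between genotypes crossed 0 in the liver for Cyp8b1 (-0.23 to 0.41), Slc10a1 (-0.06 to 0.37), Abcb11 (-0.10 to 0.37), and Nr1h4 (-0.07 to 0.21). In the kidney they did so for Slc10a2 (-0.26 to 0.68), Slc51a (-0.12 to 0.62), Slc51b (-0.65 to 0.72), and Nr1h4 (-0.50 to 0.31). In the small intestine, where leaving out a library unbalances the replicate numbers, the ranges were -7.29 to 8.71 for Slc10a2, -13.01 to 13.59 for Fabp6, -1.10 to 1.24 for Slc51a, -1.87 to 1.29 for Slc51b, -12.61 to 9.99 for Fgf15, and -2.41 to 1.88 for Nr1h4. Slc10a1 between replicate numbers ranged from -0.91 to 1.77 and Fabp6 between liver and kidney from -0.41 to 1.48. None of these reversing genotype values was called.

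No label says what a shared replicate number stands for. With the replicate block, the liver had 20 DEGs between genotypes in place of 8, and the kidney and small intestine had 0 and 0. Under the block Slc51b in the kidney became 0.02, Fabp6 and Nr1h4 in the small intestine 0.06 and -0.22, and Nr1h4 in the liver against the small intestine -0.26. The block also called Slc10a2 between liver and kidney (-2.02) and Nr1h4 between kidney and small intestine (-1.89). The deviations of same-numbered libraries correlated at 0.0376 in the liver, 0.126 in the kidney, and 0.57 in the small intestine.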
